A study of Mus musculus with 2 samples.

Results

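Expression of the *Myc* family and partner genes was described in PK44 cells of the mouse yolk sac. The 5 genes *Myc*, *Mycn*, *Max*, *Mxd4* and *Mxi1* were chosen by name, and all 5 had a row among the 23154 genes of both count tables. PK44 is the name of a sort gate (CD41-CD43-CD45-CD31+CD201+Kit+CD44+), which in the embryo proper captures endothelial cells able to form blood. The cells came from mouse embryos on a C57BL/6 background at stage E10.0 and were picked by hand before modified STRT-seq, in which a unique molecular identifier (UMI) tags each transcript of a cell. Of 87 cells of this single condition, 43 belonged to replicate 1 and 44 to replicate 2, so that no treatment or tissue was compared. The relation of the 5 genes to *Runx1* and to *Npm1* and *Ncl* was therefore examined across cells within each library.

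Myc and Mycn are transcription factors of the basic helix-loop-helix leucine zipper class that drive growth, metabolism and ribosome production, and they bind DNA only as a pair with Max. The short sequence they prefer is the E-box CACGTG. Mxd4 and Mxi1 belong to the Mxd group, which pairs with the same partner and represses transcription at the same sites. Runx1 is the transcription factor that endothelial cells need to become blood cells, while nucleophosmin (Npm1) and nucleolin (Ncl) are abundant nucleolar proteins of ribosome assembly and well-known Myc targets.

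Replicate 1 contained 8932527 counts, with a median of 141577 per cell (range, 13218 to 702028), and replicate 2 contained 12706360 counts, with a median of 238898 (range, 51620 to 956593). No cell number occurred in both libraries. Endothelial identity was checked with *Cdh5*, which had counts in 43 of 43 and 44 of 44 cells, and with 4 other genes. In replicate 1, *Pecam1* and *Tek* had counts in 42 of 43 cells, *Tie1* in 40 and *Kdr* in 34, and in replicate 2 each had counts in 44 of 44. Of 7 visceral endoderm genes none had a count in replicate 1. In replicate 2 *Afp*, *Apoa1* and *Ttr* had counts in 10, 13 and 7 cells, at 4.25, 7.16 and 5.04 CPM (counts scaled to a common library total), and *Apoa4*, *Apob*, *Amn* and *Cubn* had none. In 3 cells, 2 of replicate 1 and 1 of replicate 2, each of 4 collagen and lumican genes reached at least 100 counts. They are named the 3 cells with collagen counts below, although other cells had counts of these genes too. *Col1a2*, for example, had counts in 37 of 43 and 37 of 44 cells. Calls of the 5 genes, *Runx1*, *Npm1*, *Ncl* and list members that changed when the 3 cells were left out are given both ways. In replicate 1, 334 genes were listed at 0 although they exceeded 5 CPM in replicate 2, *Mxd4* among them. The labels did not say whether the libraries came from separate embryos. P-values thus measure only the spread between these libraries or, where a fit pairs sums of the same library, the spread of their differences.

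All 5 genes lie on different loci of the mm10 (GRCm38) assembly. *Myc* (ENSMUSG00000022346.15) spans chr15:61985391-61990374 on the plus strand and *Mycn* (ENSMUSG00000037169.15) spans chr12:12936093-12941914 on the minus strand, and neither overlaps another annotated gene in GENCODE M21. *Max* (ENSMUSG00000059436.13) lies at chr12:76937269-76962201 on the minus strand and shares 1319 bases with *Gm47218* on the same strand. *Mxd4* (ENSMUSG00000037235.13) lies at chr5:34173883-34187720 on the minus strand and shares 1001 bases with the antisense gene *Gm42846*. *Mxi1* (ENSMUSG00000025025.14) lies at chr19:53310518-53375810 on the plus strand and shares 5146 and 201 bases with *AC133451.2* and *Gm10197* on the opposite strand. Whether counting used strand was not given in the sources used here, so that reads in these shared stretches cannot be told apart.

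Start site sequences were inspected because the E-box is the site to which Myc-Max and Mxd-Max pairs bind. RefSeq windows on GRCm38.p6, running from 250 bases before to 50 bases after each start, were found for 4 of the 5 genes, with 6 windows in all. The E-box CACGTG, which reads the same on both strands, occurred in 2 of the 6 windows and in 7.15% (2349) of all 32851 windows. The *Max* window held it 3 bases before the start, across the start itself, and the *Mxd4* window held it 219 bases before the start. The *Mycn* window held no CACGTG, but 3 matches to the E2F-type motifs TTTGGCGC or TTTCGCGC, searched on both strands, at 183, 179 and 168 bases before the start. The first pair of these matches overlapped on opposite strands, and 0.813% (267) of all windows held at least 1 such match. The upstream window of *Runx1* held CACGTG 71 bases before the start. Motif matches describe the letters only and do not show binding. The part of each window up to 5 bases past the start is shown for *Mycn* (chr12:12941832-12942086), *Max* (chr12:76962244-76962498), *Mxd4* (chr5:34187706-34187960) and *Runx1* (chr16:92826070-92826324), all on the minus strand and written 5′ to 3′ with the motif matches in capitals.
Mycn: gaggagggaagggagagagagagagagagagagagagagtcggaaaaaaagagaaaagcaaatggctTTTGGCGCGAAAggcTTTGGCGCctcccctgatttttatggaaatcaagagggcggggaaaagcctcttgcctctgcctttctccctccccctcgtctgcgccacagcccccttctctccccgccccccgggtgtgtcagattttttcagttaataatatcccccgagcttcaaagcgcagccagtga
Max: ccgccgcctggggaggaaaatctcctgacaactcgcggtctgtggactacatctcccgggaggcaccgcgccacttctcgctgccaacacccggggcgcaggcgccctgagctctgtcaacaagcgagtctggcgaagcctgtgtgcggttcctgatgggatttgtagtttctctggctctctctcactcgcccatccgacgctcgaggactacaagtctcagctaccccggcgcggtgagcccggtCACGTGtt
Mxd4: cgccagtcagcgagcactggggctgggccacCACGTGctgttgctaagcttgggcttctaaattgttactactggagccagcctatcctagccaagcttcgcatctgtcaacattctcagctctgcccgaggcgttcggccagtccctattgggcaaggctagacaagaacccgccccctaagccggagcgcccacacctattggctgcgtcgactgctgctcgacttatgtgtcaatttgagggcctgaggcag
Runx1: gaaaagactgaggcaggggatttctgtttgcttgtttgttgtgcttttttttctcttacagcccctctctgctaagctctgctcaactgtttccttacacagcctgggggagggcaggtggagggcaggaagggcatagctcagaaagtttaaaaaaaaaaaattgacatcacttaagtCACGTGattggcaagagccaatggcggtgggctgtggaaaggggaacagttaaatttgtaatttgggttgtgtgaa

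*Mycn* had the highest mean level of the 5 genes and *Myc* the next highest. Since each transcript was counted by its UMI and not by coverage along its length, levels in CPM of the summed library were set side by side without a scaling by length. *Mycn* was at 112.3 CPM in replicate 1 (1003 counts) and 70.4 CPM in replicate 2 (894 counts), with a mean of 91.3 ± 29.6 CPM (SD, n = 2). *Myc* was at 86.1 CPM (769 counts) and 53.6 CPM (681 counts), with a mean of 69.8 ± 23.0 CPM. *Mycn* exceeded *Myc* in both libraries, whereas the difference of the means was smaller than the spread between libraries. *Max*, the shared partner, followed at 30.3 and 18.0 CPM (24.2 ± 8.71 CPM), below *Myc* and *Mycn* in each library. The repressor gene *Mxi1* was at 7.95 and 9.76 CPM (8.85 ± 1.28 CPM). *Mxd4*, the other repressor gene, was listed at 0 in replicate 1 and was at 9.60 CPM in replicate 2, where 122 counts were found. *Mxd4* and *Mxi1* in replicate 2 were nearly level with each other. Their means differed by less than the spread of *Mxd4* between libraries. At the depth of replicate 1, a floor of 3 counts corresponded to 0.336 CPM.

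Replicate 1 gave the higher level for *Myc*, *Mycn* and *Max*, by 1.61, 1.60 and 1.68 times. *Runx1* (2.20 times), *Npm1* (1.78 times) and *Ncl* (1.68 times) were higher in the same library, and with 1 library on each side these ratios were not tested. Among 13206 genes with a count, *Mycn* ranked 2276 and *Myc* ranked 3030 by mean CPM, compared with 819 for *Runx1*, 52 for *Npm1* and 60 for *Ncl*. Hence, *Npm1* and *Ncl*, at means of 1937 ± 765 and 1838 ± 662 CPM, were far more abundant than the 5 genes themselves.

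**Figure D1:**
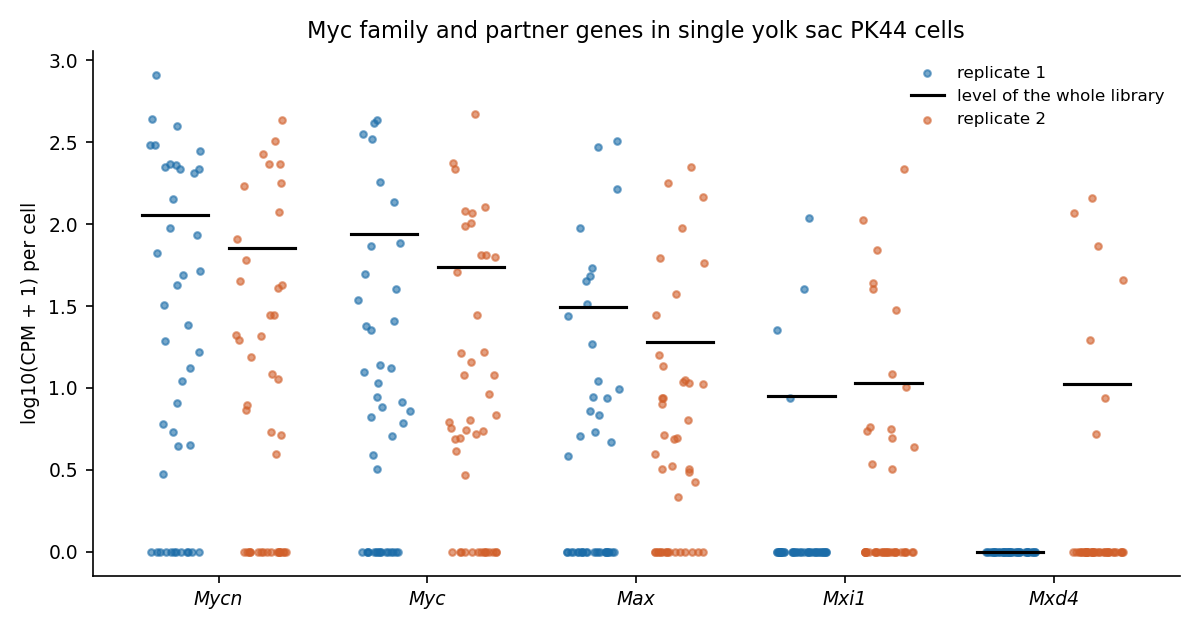
Level of each of the 5 genes in every cell, as log10(CPM + 1) on the vertical axis, with replicate 1 in blue and replicate 2 in orange; black bars mark the level of the whole library. *Mycn* and *Myc* spread from 0 to over 400 CPM in both libraries, and *Mxd4* lies at 0 in all 43 cells of replicate 1.

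Transcripts of these genes were unevenly spread over the cells. *Mycn* was found in 31 of 43 cells (72.1%, with an exact 95% range of 56.3 to 84.7%) and 26 of 44 cells (59.1%, 43.2 to 73.7%). Its level per cell had a median of 18.3 CPM and a highest value of 816 CPM in replicate 1, compared with 6.58 and 429 CPM in replicate 2. *Myc* was found in 27 of 43 cells (62.8%, 46.7 to 77.0%) and 30 of 44 cells (68.2%, 52.4 to 81.4%), with medians of 6.20 and 4.92 CPM and highest values of 430 and 471 CPM. The intervals of *Myc* and *Mycn* overlapped within each library, so that their shares of cells were not told apart at this depth. *Max* was found in 20 of 43 and 28 of 44 cells, *Mxi1* in 4 of 43 and 15 of 44 cells, and *Mxd4* in 0 of 43 and 7 of 44 cells. Since *Mxd4* was among the 334 genes listed at 0 in replicate 1, the share of up to 6.98% that 0 of 43 cells allows holds only if the gene was counted there as in replicate 2. It limits cells with a count, not cells that express the gene, and all intervals cover counting error only.

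The number of counts behind a detection differed between the genes. Of the 57 cells with *Myc*, 36 had 1 to 9 counts and 21 had at least 10, and of the 57 cells with *Mycn*, 27 had 1 to 9 and 30 had at least 10. For *Max*, 12 of 48 positive cells reached 10 counts, compared with 7 of 19 for *Mxi1* and 4 of 7 for *Mxd4*. The 3 cells with most counts held 70.0% and 60.4% of all *Myc* counts in replicates 1 and 2, compared with 46.6% and 35.3% for *Mycn*. Counts of *Myc* were thus more concentrated in few cells than those of *Mycn* in both libraries. After random thinning of every cell to 20000 counts, for which 1 cell of replicate 1 was too shallow, *Mycn* was found in 16 of 42 and 15 of 44 cells, *Myc* in 15 of 42 and 15 of 44, and *Max* in 7 of 42 and 10 of 44.

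Cells with high *Myc* and cells with high *Mycn* were partly the same. With a threshold of 10 counts, 12 cells carried both genes, 18 carried *Mycn* alone, 9 carried *Myc* alone and 48 carried neither. Of the 40 cells in which the pair summed to at least 10 counts, *Mycn* gave over 90% of the sum in 16 and *Myc* in 8. The remaining cells held a mixture, and *Mycn* made up 56.6% of the summed counts in replicate 1 and 56.8% in replicate 2. Across cells, the Spearman correlation of *Myc* with *Mycn* was 0.17 in replicate 1 (43 cells) and 0.21 in replicate 2 (44 cells). *Max* was only weakly related to *Myc* (0.08 and 0.02) or *Mycn* (0.09 and 0.15), and correlations this weak in sparse counts are no finding. All correlations across cells are descriptions, because the cells of a library share its preparation and differ in depth.

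*Mycn* followed *Runx1* across cells of both libraries, more closely in replicate 2. The Spearman correlation of *Mycn* with *Runx1* was 0.31 in replicate 1 and 0.67 in replicate 2. With depth held constant in a partial correlation it was 0.26 and 0.61, and over thinned cells it was 0.32 and 0.46. *Mycn* itself correlated with the depth of the cell at 0.19 and 0.57. *Mycn* was related to *Npm1* (0.65) and *Ncl* (0.69) in replicate 2, whereas in replicate 1 the values were 0.17 and -0.00. The relation of *Mycn* to both nucleolar genes was therefore seen in 1 of the 2 libraries. Leaving out the 3 cells with collagen counts gave 0.18 and 0.64 for *Npm1* and -0.01 and 0.70 for *Ncl*. For reference, *Npm1* and *Ncl* correlated with each other at 0.63 and 0.70.

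**Figure D2:**
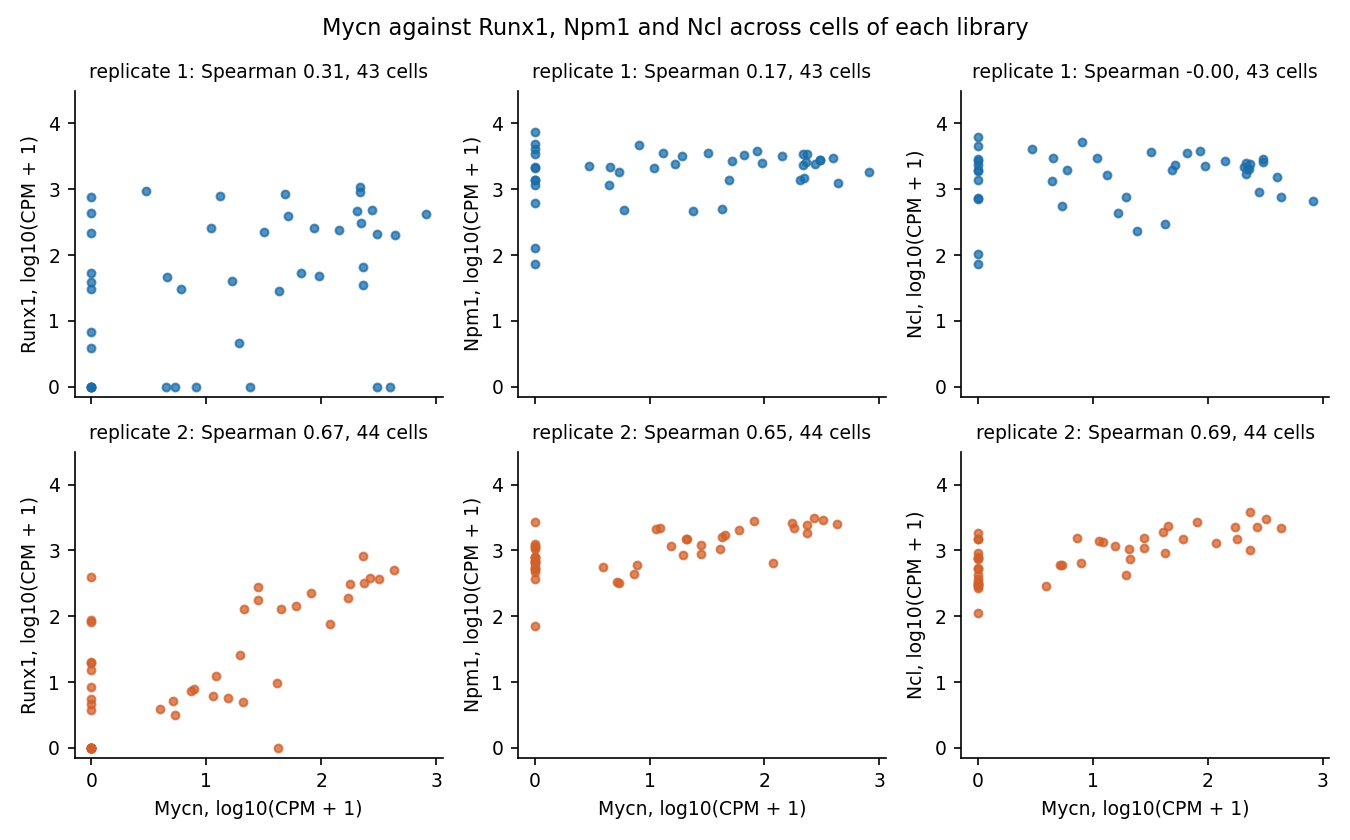
*Mycn* on the horizontal axes against *Runx1*, *Npm1* and *Ncl* on the vertical axes, each as log10(CPM + 1), with 1 point per cell, replicate 1 in the upper row and replicate 2 in the lower row. The points of replicate 2 rise together in all 3 panels (Spearman 0.67, 0.65 and 0.69), and those of replicate 1 scatter more widely (0.31, 0.17 and -0.00).

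In replicate 2 the other 4 genes were less closely related to *Runx1*, *Npm1* and *Ncl* than *Mycn* was, whereas in replicate 1 *Max* with all 3 genes, *Myc* with *Npm1* and *Ncl*, and *Mxi1* with *Ncl* lay above the values of *Mycn*. *Myc* correlated with *Runx1* at 0.21 and 0.44, with *Npm1* at 0.27 and 0.15, and with *Ncl* at 0.06 and 0.23. *Max* correlated with *Runx1* at 0.37 and 0.11, with *Npm1* at 0.23 and 0.08, and with *Ncl* at 0.25 and 0.24, and over thinned cells its correlation with *Runx1* was 0.02 and -0.04. For *Mxi1*, the 6 values lay between -0.13 and 0.17. *Mxd4* could be related in replicate 2 only, where it correlated with *Runx1* at -0.16, *Npm1* at -0.07 and *Ncl* at -0.10.

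The genes whose pattern across cells was most like that of each member were then ranked by the lower of the 2 libraries' Spearman correlations, among 3660 or 3661 genes with a count in at least 50% of the cells of each library. For *Mycn* these included *Rps28* (0.45 and 0.48), which encodes a ribosomal protein, the cytokine gene *Mif* (0.49 and 0.75), *Uchl3* (0.45 and 0.51) of a ubiquitin hydrolase, and *Ndufv3* (0.45 and 0.45) of mitochondrial complex I. *Myc* was most like *Chmp4b* (0.43 and 0.46), *Cdc73* (0.43 and 0.48) of the Paf1 complex and the nucleolar helicase gene *Ddx21* (0.41 and 0.44). *Max* was most like the collagen gene *Col1a1* (0.42 and 0.40), *Ipo5* (0.34 and 0.40) and *Cyth4* (0.34 and 0.42). *Mxi1*, with counts in few cells, was most like *Clint1* (0.30 and 0.33), *Map2k1* (0.29 and 0.30) and *Dock1* (0.39 and 0.29).

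To compare cells over libraries, each library was split at its own median level of *Runx1* (52.2 and 10.03 CPM), and counts were summed per library and side into 4 sums. Cells just inside and just outside the threshold were close, at 52.7 against 52.2 CPM and at 11.2 against 8.85 CPM. *Mycn* was at 31.2 CPM in the *Runx1*-low and 157.0 CPM in the *Runx1*-high cells of replicate 1, and at 9.21 and 111.4 CPM in those of replicate 2. Both *Runx1*-high sums lay above both *Runx1*-low sums. At least 10 counts of *Mycn* were found in 3 of 22 low and 12 of 21 high cells of replicate 1, and in 2 of 22 low and 13 of 22 high cells of replicate 2. The difference of *Mycn* was 2.69 ± 0.75 (log2 fold change ± SE) in edgeR's quasi-likelihood test and did not pass (Benjamini-Hochberg adjusted p = 0.725). With the library as a block, which pairs sums of the same library, it was 2.92 ± 0.71 and *Mycn* rose (adjusted p = 0.00576). A p-value with the block measures how the difference between sides varied over the libraries. It comes from 4 sums, with estimates of spread shared among genes. In all, *Mycn* was positive in 12 of 12 fits and passed in 5 of them, with adjusted p from 0.00256 to 0.818.

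Without the block, 1 of 10629 genes passed (0.00941%), the collagen gene *Col1a1*, which was lower in *Runx1*-high cells, while the unadjusted p was under 0.05 for 588 genes. With the block, 166 genes passed (1.56%), of which 40 were higher (0.376%) and 126 lower (1.19%), and DESeq2 without the block called 140. *Mycn* was the only one of the 5 genes to pass with the block. The low cells were shallower, with median depths of 95376 and 213444 counts against 260240 and 271734 counts in the high cells. Over cells thinned to 20000 counts, *Mycn* differed by 1.97 and did not pass with the block (adjusted p = 0.487). The split was redrawn on the thinned counts, with 25 low and 19 high cells in replicate 2, and 6847 genes were tested. That fit therefore differs from the others in its cells and total counts as well as in depth per cell. The 3 cells with collagen counts were all *Runx1*-low, and without them the value for *Mycn* with the block was 2.92 (adjusted p = 0.0119).

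*Myc* was at 66.8 and 96.7 CPM in the low and high cells of replicate 1 and at 13.1 and 80.8 CPM in those of replicate 2. Both high sums of *Myc* lay above both low sums, with a log2 fold change of 0.47 in replicate 1 alone and 2.58 in replicate 2 alone. The difference of *Myc* was 1.10 ± 0.82 without and 1.53 ± 0.78 with the block (adjusted p = 0.987 and 0.572). *Max* went opposite ways, from 9.77 to 41.7 CPM in replicate 1 and from 25.5 to 13.0 CPM in replicate 2, with a fitted value of 0.62 ± 1.23. *Mxi1* also went opposite ways, from 9.77 to 6.94 CPM and from 5.68 to 12.5 CPM. *Mxd4*, in replicate 2 alone, was at 13.9 CPM in low and 6.71 CPM in high cells. None of these 4 genes passed in any of the fits made.

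*Ncl* was at 1568 and 2713 CPM in the *Runx1*-low and *Runx1*-high cells of replicate 1, and at 843 and 1723 CPM in those of replicate 2. Its difference of 0.84 ± 0.42 did not pass without the block (adjusted p = 0.905) and passed with it, at 0.88 ± 0.25 (adjusted p = 0.0316). The call of *Ncl* was lost with the block without the 3 cells (0.82, adjusted p = 0.105) and over thinned cells (0.78, adjusted p = 0.239). *Npm1* differed by 0.57 ± 0.46 and, with the block, by 0.68 ± 0.25 (adjusted p = 0.996 and 0.180). Neither nucleolar gene therefore passed without the block.

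**Figure D3:**
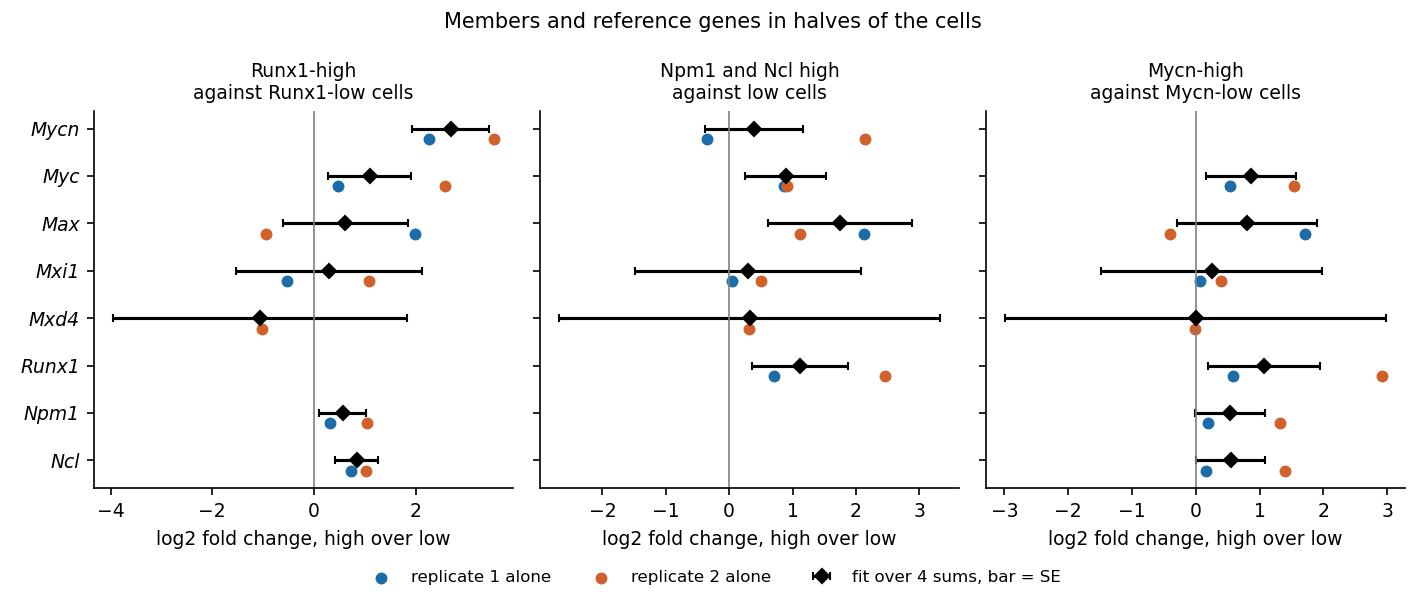
Log2 fold change of the 5 genes and of *Runx1*, *Npm1* and *Ncl* between high and low cells in 3 splits of the cells. Diamonds show the fit over 4 sums without a block, with bars of 1 SE, and blue and orange points show replicates 1 and 2 alone. *Mycn* lies at 2.69 in the split by *Runx1*, with both libraries above 2, and at 0.39 in the split by *Npm1* and *Ncl*, where the libraries take opposite signs.

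In the split by the summed level of *Npm1* and *Ncl* (medians of 4533 and 2126 CPM), the libraries disagreed on *Mycn*. *Mycn* was at 128.9 CPM in low and 100.5 CPM in high cells of replicate 1, and at 22.3 and 101.4 CPM in those of replicate 2. The fitted difference was 0.39 ± 0.77, and 0.89 ± 0.62 with the block (adjusted p = 0.9995 and 0.794), whereas replicate 1 alone gave -0.36 and replicate 2 alone gave 2.14. *Max* was higher in the high cells of both libraries, at 9.98 and 44.8 CPM in replicate 1 and 10.2 and 23.1 CPM in replicate 2, and did not pass (1.74 ± 1.14, adjusted p = 0.9995). Its counts lay in few cells, with 68.3% and 50.2% of them in the top 3 cells of replicates 1 and 2. Over thinned cells, replicate 1 alone gave -0.03 for *Max* and replicate 2 alone gave 1.33. *Myc* went from 58.0 to 106.0 CPM and from 34.3 to 66.0 CPM, with a difference of 0.89 ± 0.64 that did not pass. *Mxi1* (7.82 and 8.04 CPM, then 7.62 and 11.1 CPM) and *Mxd4* (8.23 and 10.5 CPM in replicate 2) were close between sides. *Runx1* was at 219.6 and 357.7 CPM in replicate 1 and at 35.9 and 201.4 CPM in replicate 2, did not pass without the block (1.12 ± 0.76) and rose with it (1.58 ± 0.41, adjusted p = 0.0125). With the block, the call of *Runx1* was lost in DESeq2 (adjusted p = 0.0531), over thinned cells (1.11, adjusted p = 0.657) and without the 3 cells with collagen counts (1.55, adjusted p = 0.287). In this split 0 of 10615 genes passed edgeR without the block (0%), the unadjusted p was under 0.05 for 467, and 55 were called by DESeq2. With the block, 177 genes passed (1.67%), of which 59 were higher (0.556%) and 118 lower (1.11%), and none of the 5 genes was among them. Low cells were shallower in this split too, with median depths of 87999.5 and 178984 counts against 230059 and 271734 counts in the high cells.

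Finally, cells were split by *Mycn* itself, at medians of 18.3 and 6.58 CPM. The low cells were again shallower, with median depths of 140016 and 202556 counts against 161402 and 291242 counts in the high cells. *Runx1* was at 233.5 CPM in *Mycn*-low and 355.3 CPM in *Mycn*-high cells of replicate 1, and at 25.4 and 194.8 CPM in those of replicate 2. Its difference was 1.07 ± 0.88, and 1.74 ± 0.56 with the block (adjusted p = 0.9998 and 0.553). *Npm1* (0.54 ± 0.54) and *Ncl* (0.55 ± 0.54) did not pass either. *Myc* went from 68.5 to 100.5 CPM and from 23.5 to 69.4 CPM, a difference of 0.87 ± 0.71 that did not pass. *Max* took opposite signs in the libraries, and *Mxi1* and *Mxd4* had fitted values of 0.25 and -0.00. In this split 0 of 10537 genes passed edgeR without the block (0%) and 0 with it (0%), with 442 and 680 genes at an unadjusted p under 0.05. DESeq2 called 46 genes without and 171 with the block.

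Other genes of the network to which the 5 genes belong were read from lists of known members. *Mga*, a Max-binding repressor gene, was the most abundant of 8, at 168.2 and 74.1 CPM, above *Mycn* in both libraries. *Mlxip* was at 49.5 and 79.9 CPM, *Mlx*, its partner, at 22.8 and 20.3 CPM, and the Max-binding repressor gene *Mnt* at 21.2 and 10.5 CPM. *Mycl* and *Mlxipl* had no count in either library. Of the 6 network genes tested, none passed in edgeR over all cells in any of the 3 splits, with or without the block. DESeq2 with the block called *Mxd3* lower in the splits by *Runx1* and by *Mycn*, beside 224 and 119 of all 13205 genes lower. *Mlx* took opposite signs in the split by *Runx1*, from 63.7 to 1.73 normalised CPM in replicate 1 and from 1.94 to 32.2 normalised CPM in replicate 2.

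Cofactors that Myc recruits to chromatin and enzymes that set the life span of the Myc protein were measured throughout. Among 10 cofactor genes, *Bptf* (251.6 and 228.9 CPM), *Ruvbl2* (216.1 and 127.8 CPM) and *Ep400* (162.4 and 123.6 CPM) were among the most abundant. Among 10 genes of protein turnover, the ubiquitin ligase gene *Huwe1* (186.8 and 166.5 CPM) and the kinase genes *Gsk3b* (195.6 and 153.2 CPM) and *Aurka* (95.8 and 109.6 CPM) were among the most abundant. No gene of either list passed in any split, with or without the block. In the split by *Runx1*, 6 of 10 cofactor genes and 5 of 10 turnover genes had a positive fold change.

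Known targets of Myc mostly had positive fold changes between *Runx1*-low and *Runx1*-high cells, and few of them passed. Of 40 genes of ribosome biogenesis, 36 had a positive fold change, 31 of them in both libraries, and their median was 0.94 on the log2 scale. Over all 10629 genes, 5282 were positive, 3065 of them in both libraries, and the median was -0.01. The study reported ribosome biogenesis for its hematopoietic-biased group of these cells, which featured *Runx1*. The direction of the 40 genes is thus not independent evidence. None of the 40 passed without the block. With it, 3 rose, namely *Nhp2* of the box H/ACA particle (1.73 ± 0.34, adjusted p = 0.000122), *Gnl3* of nucleostemin (1.67 ± 0.41, adjusted p = 0.00669) and *Wdr43*. *Nop58*, *Nop10* and *Nolc1*, also among the most abundant, had fold changes of 0.66, 0.26 and 0.35 with the block and did not pass. Of 24 metabolic targets tested, 23 were positive, and *Srm* of spermidine synthesis rose with the block (1.44 ± 0.41, adjusted p = 0.0335), whereas the abundant *Nme1*, *Nme2*, *Ldha* and *Pkm* (0.92, 0.17, 0.79 and 0.52) did not pass. Of 19 growth targets tested, 17 were positive, and *Eif5a* (1.16 ± 0.27, adjusted p = 0.00276), *Pa2g4* and *Cct3* rose with the block. *Ran*, *Hspe1* and *Set* (0.54, 0.85 and 0.63) did not pass. These counts stand beside 0.376% of all genes higher with the block. The same genes of the 3 lists passed with the block without the 3 cells with collagen counts, and none of them over thinned cells, where 4 genes passed with the block, *Col1a1*, *Col1a2*, *Col3a1* and *Sparc*, all lower.

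Across the *Mycn* split, 38 of 40 ribosome biogenesis genes had a positive fold change, 27 of them in both libraries, with a median of 0.91, beside 5214 of all 10537 genes with a median of -0.01. The median was 0.75 in replicate 1 and 1.19 in replicate 2. Among metabolic targets 20 of 24 were positive (median 0.73) and among growth targets 12 of 18 (median 0.40). None of these genes passed in edgeR over all cells, with or without the block. With the block but without the 3 cells with collagen counts, *Nop56*, *Nhp2*, *Ddx18*, *Srm*, *Eif5a* and *Cct3* rose, beside 25 of all 10455 genes. DESeq2 with the block called *Ddx18*, *Srm*, *Cad*, *Eif5a*, *Hspe1* and *Cct3* higher, beside 52 of all 13205 genes. The 14 lowest and 14 highest cells of each library, with the block, gave *Nhp2*, *Ddx18*, *Eif5a* and *Pa2g4*. That fit called 20 of all 9667 genes higher. Over thinned cells with the block none of the 3 lists had a call. The medians describe the lists, whose genes vary together across cells, and no test was made of a list. Of the 40 ribosome biogenesis genes, 34 were positive in the split by *Npm1* and *Ncl* (median 1.01) beside 5219 of all 10615 genes (median -0.02), and with the block *Nop56*, *Dkc1*, *Nhp2*, *Nolc1*, *Wdr43* and *Ddx21* rose. The metabolic targets *Srm*, *Ldha* and *Shmt2* and the growth targets *Eif5a*, *Pa2g4*, *Hspd1* and *Hspe1* rose as well with the block, beside 0.556% of all genes. Without the 3 cells with collagen counts only *Dkc1*, *Nhp2* and *Srm* of these passed with the block, and over thinned cells none did. *Npm1* and *Ncl* are themselves genes of ribosome assembly, so that the direction of the ribosome biogenesis list in their split is not independent evidence.

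**Figure D4:**
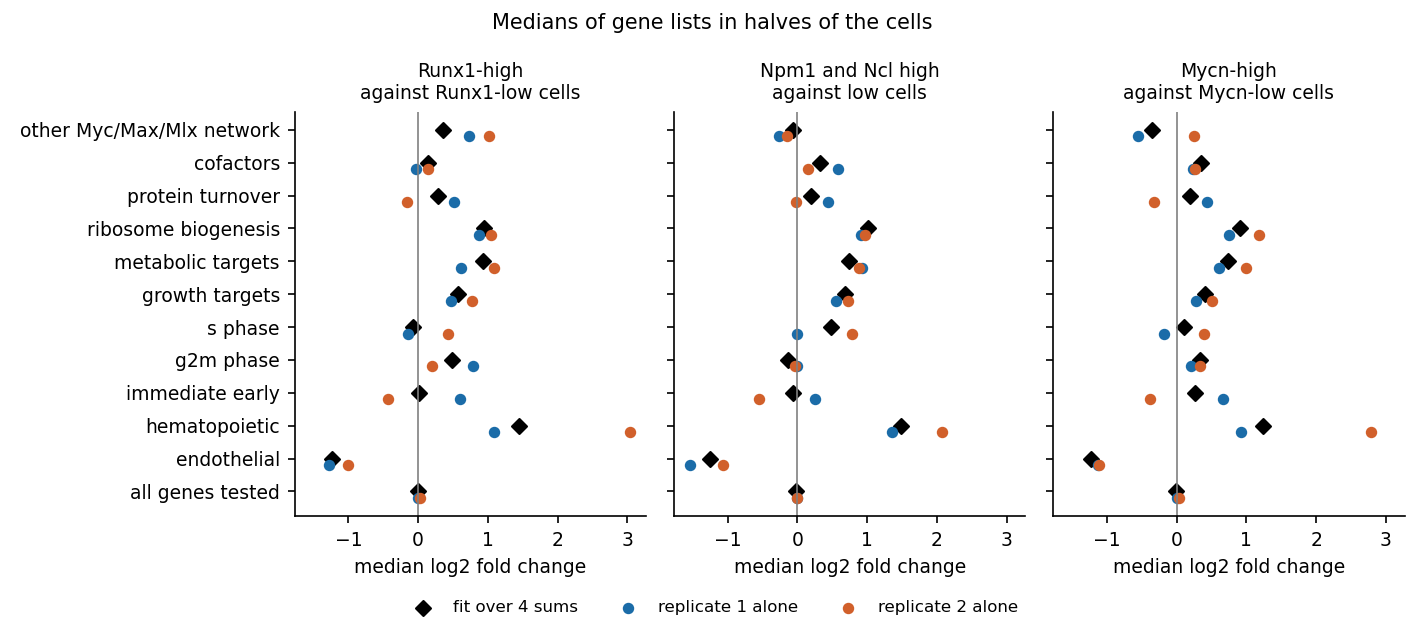
Median log2 fold change of each gene list and of all genes tested, in 3 splits of the cells, with diamonds for the fit over 4 sums without a block and points for replicate 1 (blue) and replicate 2 (orange) alone. Ribosome biogenesis medians are 0.94, 1.01 and 0.91 from left to right, endothelial medians are -1.24, -1.25 and -1.23, and the medians of all genes are close to 0.

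Cell cycle genes and immediate early genes gave no call in any split in edgeR over all cells, with or without the block. In the *Mycn* split with the block, DESeq2 called *Mcm7* and *Cdk1* higher, beside 52 of all 13205 genes. In the same split with the block, *Mcm7* rose without the 3 cells with collagen counts, beside 25 of all 10455 genes. *Mcm7* also rose in the split by *Npm1* and *Ncl* with the block and only the 14 lowest and 14 highest cells of each library. That fit called 93 of all 9840 genes higher. Between *Mycn*-low and *Mycn*-high cells, 8 of 15 S phase genes (median 0.10), 14 of 15 G2 and M phase genes (median 0.34) and 10 of 15 immediate early genes (median 0.26) were positive. *Cdk1* had a fold change of 1.20 with the block in edgeR, *Mki67* of 0.32, *Top2a* of 0.24 and *Pcna* of -0.07, and none of them passed in that fit.

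Genes of blood and endothelial identity lay on opposite sides of the *Mycn* split, as they did in the split by *Runx1*. Of 12 hematopoietic genes, 11 were positive in the fit of the *Mycn* split and 8 were positive in both libraries. Their median was 0.93 in replicate 1 and 2.78 in replicate 2. Of 12 endothelial genes, 11 were negative in both libraries (medians of -1.13 and -1.11). Over all 10537 genes, 5214 were positive in the fit, 3014 were positive in both libraries and 2723 were negative in both. *Adgrg1* (1.79 ± 0.44), *Neurl3* (1.77 ± 0.64), *Kit* (1.79 ± 0.53) and *Bcl11a* (1.33 ± 0.71) did not pass with the block, nor did *Cdh5* (-1.22 ± 0.26), *Kdr* (-1.53 ± 0.31), *Nrp1* (-1.67 ± 0.26) and *Cldn5* (-1.25 ± 0.25), the adjusted p of *Nrp1* being 0.105. Other fits with the block did call such genes. Without the 3 cells with collagen counts, *Adgrg1* rose and *Cdh5*, *Kdr*, *Nrp1*, *Gja4*, *Gja5*, *Efnb2* and *Cldn5* fell. That fit called 25 higher and 87 lower of 10455 genes. In DESeq2 *Adgrg1* rose and 7 endothelial genes fell, beside 52 higher and 119 lower of 13205 genes. With the 14 lowest and 14 highest cells of each library, *Adgrg1* and *Kit* rose and 6 endothelial genes fell. That fit called 20 higher and 64 lower of 9667 genes. Over thinned cells *Kdr*, *Gja5* and *Cldn5* fell, beside 3 higher and 39 lower of 6746 genes. With the block, *Adgrg1*, *Neurl3*, *Bcl11a* and *Kit* rose in *Runx1*-high cells, and 8 of 12 endothelial genes, *Cdh5*, *Kdr*, *Tek*, *Nrp1*, *Gja4*, *Gja5*, *Efnb2* and *Cldn5*, fell, beside 0.376% of all genes higher and 1.19% lower. All 12 of these calls were also made without the 3 cells with collagen counts, and none over thinned cells. Between sides of the split by *Npm1* and *Ncl*, with the block, *Spi1*, *Neurl3*, *Angpt1* and *Kit* rose and the same 8 endothelial genes fell, beside 0.556% of all genes higher and 1.11% lower. Without the 3 cells, *Kdr*, *Nrp1*, *Gja4*, *Gja5* and *Cldn5* still fell and no hematopoietic gene passed, and over thinned cells no gene of either list passed. The study named several of these genes from these cells and Kit was part of the sort, so that these lists are not independent evidence of a direction.

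Markers of other cell types also differed between the sides of a split. The summed level of 7 mesenchymal genes was 2282 and 795 CPM in *Runx1*-low cells, compared with 53.0 and 23.4 CPM in *Runx1*-high cells. In the other splits the libraries went opposite ways, from 1943 to 65.6 CPM and from 27.3 to 531 CPM in the split by *Npm1* and *Ncl*, and from 1800 to 59.6 CPM and from 32.9 to 491 CPM in the split by *Mycn*. The summed level of 6 myeloid genes was 170.2 and 65.6 CPM in *Runx1*-low and 449.3 and 503.2 CPM in *Runx1*-high cells, with *Ptprc*, whose product CD45 was excluded by the sort, at 1.57 and 3.38 CPM over the whole libraries. For *Mycn*, myeloid genes summed to 148.9 and 125.0 CPM in low and 515.6 and 433.9 CPM in high cells. Of 6 myeloid genes, 4 to 6 had a count in each sum. Of 6 erythroid genes, *Hba-a1* was at 0 in both libraries, and the sum of the list did not exceed 27.0 CPM in the *Runx1* split. The part of these genes in the difference of *Mycn* was not tested.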

How the data were processed

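Libraries were made by modified STRT-seq. The authors used HISAT2 2.1.0 for alignment to the mm10 transcriptome and HTSeq (version not given in the sources used here) for counting, and collapsed reads with the same UMI. Raw counts per gene and cell were deposited. Per the methods, cells with at most 2000 genes or 10000 transcripts had been removed, as had cells with too many reads or genes, and no doublet caller was run here. The barcode tables were not used here.

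All 87 cells of the files, the number the study states, were kept. CPM were computed from counts of a cell, a library or a sum. Exact (Clopper-Pearson) limits at 95% were computed for shares of cells. Within each library, cells above the median CPM of the splitting gene were called high and the others low, and counts summed per library and side were tested with edgeR 4.0.16 under R 4.3.3 (filterByExpr filter, TMM factors, quasi-likelihood test, Benjamini-Hochberg adjustment over all genes, threshold 0.05). Splitting genes were left out of the calls. Sums with the same replicate number came from 1 library, and the deviations of the sums from their group means correlated at 0.197, 0.184 and 0.181 in the 3 splits, so that the number paired them. The block, DESeq2 1.42.0, its size factors, no filter on low counts and thinning to 20000 counts (seed 1) were alternatives. Others were the 14 lowest and 14 highest cells of each library alone, and each library left out. In another, the 3 cells high in collagen and lumican genes were left out. Medians for the splits were taken anew over thinned cells and without the 3 cells with collagen counts. The fits were run on simulated counts with known changes. Those counts held no difference between libraries other than depth, so that they cannot decide between fits with and without the block.

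The 5 genes, the gene lists and the splits were chosen with earlier results of these data known. Named genes were the 5 genes, *Runx1*, *Npm1* and *Ncl*, up to 4 members of each list with the highest mean CPM, called members of the lists, the genes most alike, and up to 5 called genes per direction with the largest fold change and the same sign in both libraries. A few genes that this rule names are not reported here. Markers of other cell types and called list members outside this rule were named after their values were seen. Sequences came from RefSeq windows on GRCm38.p6, and those shown were chosen after the levels were known. Gene positions came from GENCODE M21. Python 3.11.15, pandas 2.3.3, numpy 2.4.6, scipy 1.17.1 and matplotlib 3.10.9 were used.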

Additional observations from a re-analysis of the deposited data

How the results depend on the processing

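The number of genes that passed depended on the fit. In the split by *Runx1*, 1 gene passed in edgeR without the block and with DESeq2 size factors, 166 with the block, 140 in DESeq2, 67 without the filter on low counts, 3 over thinned cells, and 0 with the 14 lowest and 14 highest cells of each library (the outer cells) or without the 3 cells high in collagen and lumican genes. With alternatives chosen after seeing the data, which joined the block to a second change, 307 passed in DESeq2, 4 over thinned cells, 114 with the outer cells and 147 without the 3 cells. For the split by *Npm1* and *Ncl*, the count was 0 without the block, with DESeq2 size factors, over thinned cells, with outer cells and without the 3 cells, 177 with the block, 55 in DESeq2 and 19 without the filter, and with the block it was 216 in DESeq2, 0 over thinned cells, 281 with outer cells and 25 without the 3 cells. For the split by *Mycn*, 0 passed with and without the block, 46 in DESeq2, 16 without the filter and 1 over thinned cells, and with the block 171 in DESeq2, 42 over thinned cells, 84 with outer cells and 112 without the 3 cells. The cause was not tested. The call of *Mycn* in the split by *Runx1* was made with the block (2.92), in DESeq2 (2.66, adjusted p = 0.0434), without the filter (2.70, adjusted p = 0.0371), and with the block in DESeq2 (2.90) or without the 3 cells (2.92). It was not made with the block over thinned cells (1.97) or outer cells (2.96, adjusted p = 0.201). The block changed no other call among the 5 genes. *Runx1* passed in the *Mycn* split with the block and without the 3 cells (1.70, adjusted p = 0.0222). Among fold changes of the 5 genes, *Runx1*, *Npm1* and *Ncl* under alternatives, 221 kept their direction and call, 11 came to pass and 7 reversed. Values with 1 library left out, which have no test, were counted by direction alone. With 1 library left out in turn, *Max* ranged from -0.95 to 1.99 in the split by *Runx1* and from -0.41 to 1.72 in the split by *Mycn*, *Mxi1* from -0.53 to 1.08 in the split by *Runx1*, and *Mycn* from -0.36 to 2.14 in the split by *Npm1* and *Ncl*, where the lower value was that of replicate 1. *Mxd4* was at -0.0125 with the block in DESeq2 in the split by *Npm1* and *Ncl*, and at 0.0314 without the 3 cells in the split by *Mycn* (0.0257 with the block). With 1 library left, no test was possible. *Mxd4* and *Mxi1* did not pass the filter on low counts in the thinned sums of any split, nor with outer cells in the split by *Npm1* and *Ncl*, nor *Mxd4* with outer cells in the split by *Runx1*, and were not tested there. Depth limits the shares of cells, since at least 10 counts were found in 24.1%, 34.5% and 13.8% of cells for *Myc*, *Mycn* and *Max*, as means of both libraries, compared with 65.5%, 65.6% and 55.1% at 1 count.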

Other observations

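The genes with the largest fold changes in the split by *Runx1* with the block were not members of the Myc network. On the higher side stood *Cited1*, a transcriptional coregulator gene, at 2.95 and 86.6 normalised CPM in low and high cells of replicate 1 and at 1.55 and 51.8 normalised CPM in those of replicate 2 (4.95 ± 1.27, adjusted p = 0.0117 in edgeR's quasi-likelihood test). *Rpp40* of ribonuclease P, *Sac3d1*, *Nln* and *Pdk3* were the others. On the lower side stood *Vcan* of the extracellular matrix, at 111.6 and 0.693 normalised CPM in replicate 1 and 14.7 and 0.130 in replicate 2, with *Tdo2*, *Plxnb1*, *Fam81a* and *Frk*, the last of which was at 0 in both high sums. *Cited1* rose in the split by *Npm1* and *Ncl* too (5.33 ± 1.17, adjusted p = 0.00100), beside *Bcl9l*, *Dhx33*, *D030056L22Rik* and *Sfrp2*, whereas *Lhfp*, *Camsap2*, *Wfdc1*, *Zbtb4* and *Akap12* fell most. Fold changes of genes near 0 on one side depend on the prior count of the fit.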
